A study of Homo sapiens and Mus musculus with 24 samples.

Results

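The genes described here are 10 genes of the extracellular matrix and of the mesenchymal cell state, FN1, COL1A1, COL1A2, COL3A1, COL6A1, COL6A2, SPARC, VIM, THY1 and DCN, in LNCaP prostate cancer cells grown with or without fibroblasts. They were taken by symbol, and all 10 were found among the 44564 names kept in the LNCaP table. The LNCaP samples form 6 groups of 2 libraries, each collected at day 7. LNCaP is an androgen-responsive human epithelial line that the labels give as wild type. The cells were grown with the fibroblasts labelled CRPCCAF, with the fibroblasts labelled CCAF, or alone, and each culture received either 1 µM enzalutamide, an antiandrogen, or its vehicle DMSO. The labels spell out neither fibroblast name, nor do they state the species of the cocultured fibroblasts or how their reads were kept apart from those of LNCaP. The sample titles of both cocultures carry the term p53, and those with CRPCCAF also the term ca. A separate table of mouse cancer-associated fibroblasts, from mice whose labelled genotype includes Trp53PC-/-, is used here only to show how strongly fibroblasts themselves express these genes. Its 5 groups used here have 2 libraries each: 1 µM enzalutamide with 5 ng/ml TGF-β1, 1 µM enzalutamide, 5 ng/ml TGF-β1 and DMSO, all at day 7, and untreated fibroblasts of mice labelled ADT at day 0.

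FN1 encodes fibronectin, a secreted glycoprotein that assembles into fibrils and binds integrins. COL1A1, COL1A2 and COL3A1 encode the chains of the fibrillar collagens I and III, COL6A1 and COL6A2 chains of the beaded-filament collagen VI, and SPARC and DCN (decorin) secreted proteins that bind collagen. VIM encodes vimentin, the intermediate filament of mesenchymal cells, and THY1 a surface glycoprotein often used to mark fibroblasts. Fibroblasts make most of the matrix of a tumour, while epithelial cancer cells that gain mesenchymal features can raise FN1 and VIM themselves.

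RNA levels are RPKM, reads scaled to gene length and library size, as deposited. Between 17850431 and 22187880 reads lay behind each of the 12 libraries, counted back from the RPKM that a single read is worth. Of 8 luminal prostate markers, used to check the label, 8 had at least 1 RPKM in every library, and 4 were higher and 0 lower with CRPCCAF than alone with DMSO. Of all genes tested, 14.3% were higher and 16.3% lower there. Under enzalutamide 4 of the 8 were higher and 3 lower with CRPCCAF than alone, where 16.5% and 19.6% of all genes were. Enzalutamide lowered KLK3, the androgen-induced gene of prostate-specific antigen, to 58.5 ± 4.2 RPKM, against 1194 ± 69 RPKM with DMSO, in cells alone. Each ± is the SD of 2 libraries. Tests are limma fits over 16042 genes on log2(RPKM + 1), two-sided, with p values adjusted over all of those genes. A gene called changed had an adjusted p under 0.05, and log2 changes are on the log2(RPKM + 1) scale, which understates those of low genes. The labels call the 2 libraries of a group biological replicates.

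The 10 genes fell into 2 classes by level. FN1, COL6A1, COL6A2, COL1A1 and VIM had at least 1 RPKM in all 12 libraries, from 2.38 RPKM for VIM to 187 RPKM for FN1, and were tested. SPARC, COL3A1, COL1A2, DCN and THY1 stayed under 1 RPKM in all 12 libraries, did not pass the filter on low values, and are given below as reads.

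**Figure D1:**
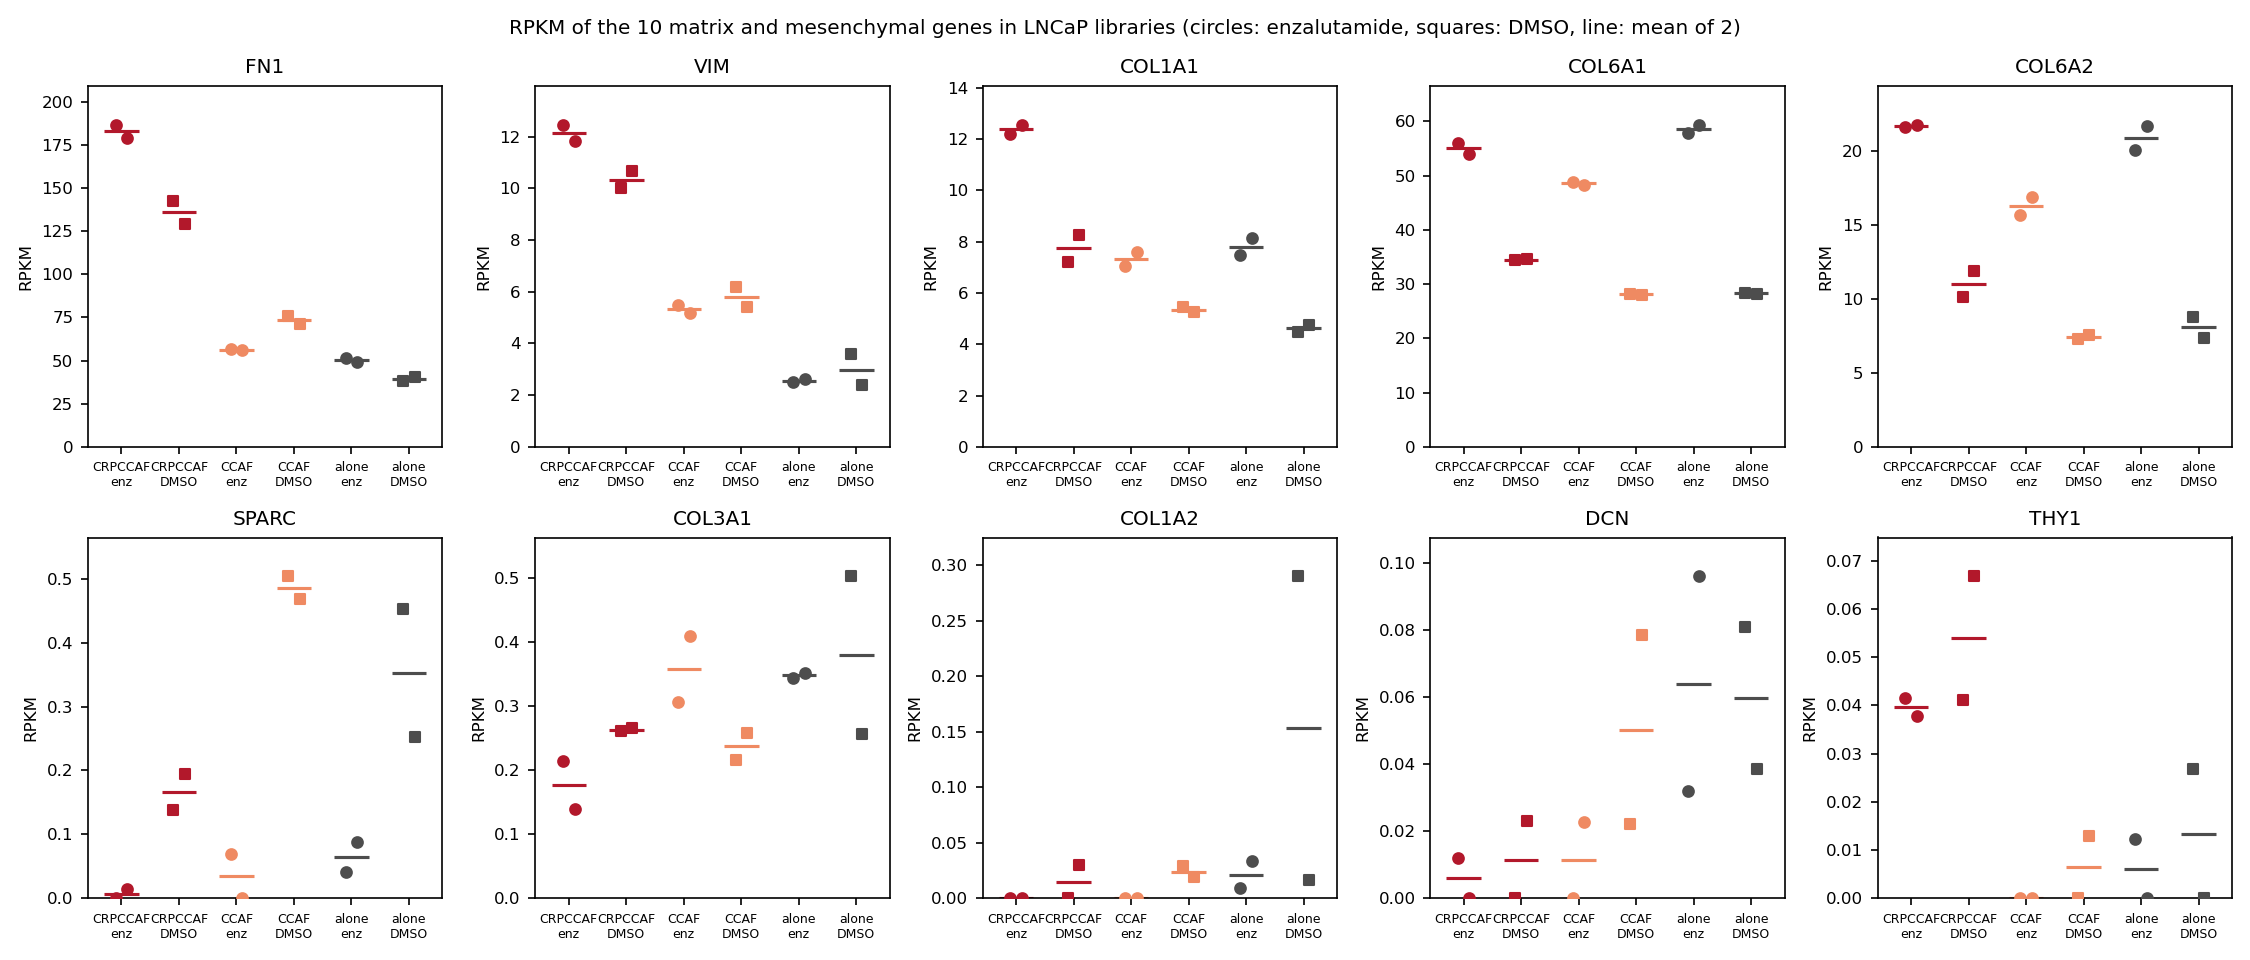
RPKM of each gene in the 12 LNCaP libraries, with the 6 groups along the x axis and a separate y axis from 0 for each gene. Points are libraries (circles enzalutamide, squares DMSO) and lines are means of 2. FN1 and VIM are highest in both CRPCCAF groups, COL6A1 and COL6A2 are highest with enzalutamide, and the 5 genes of the lower row reach at most 0.504 RPKM.

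With DMSO, coculture with CRPCCAF fibroblasts went with higher RNA of all 5 tested genes, led by FN1 and VIM, both 3.46-fold over LNCaP alone. FN1 had 142 and 129 RPKM in the CRPCCAF libraries and 38.1 and 40.5 RPKM in cells alone. These libraries were far apart, and FN1 rose by 1.76 on the log2 scale (95% interval 1.64 to 1.89, adjusted p 3.7e-08). VIM had 10.0 and 10.6 RPKM with CRPCCAF and 3.60 and 2.38 RPKM alone, again without overlap, a log2 change of 1.52 (1.25 to 1.80, adjusted p 2.0e-05). In such bulk samples, a change in the number of cells of a type and in RNA per cell cannot be told apart. COL1A1 had 7.22 and 8.25 RPKM with CRPCCAF and 4.49 and 4.75 RPKM alone, a log2 change of 0.63 (adjusted p 0.00016). The collagen VI chains rose least. COL6A1 had 34.4 and 34.5 RPKM with CRPCCAF and 28.3 and 28.2 RPKM alone, a log2 change of 0.28 (adjusted p 0.00023). COL6A2 had 10.1 and 11.8 RPKM with CRPCCAF and 8.80 and 7.34 RPKM alone, a log2 change of 0.40 (adjusted p 0.0073), but without replicate 2 of the cells alone the change was 0.29 with an adjusted p of 0.055. So 5 of 5 tested genes were higher, where 14.3% of all 16042 genes were called higher, 16.3% lower and 30.6% in either direction. The median log2 change was 0.63 for the 5 genes and -0.02 for all genes.

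With CCAF fibroblasts, FN1 and VIM rose and the collagens did not pass the test. With DMSO, FN1 had 76.0 and 71.4 RPKM in CCAF cocultures and 38.1 and 40.5 RPKM in cells alone, which is 1.88-fold (log2 change 0.89, 0.77 to 1.02, adjusted p 9.6e-06). VIM had 6.19 and 5.40 RPKM with CCAF and 3.60 and 2.38 RPKM alone, 1.94-fold (log2 change 0.78, adjusted p 0.0042). The libraries of both genes were apart. COL1A1 averaged 5.34 ± 0.13 RPKM with CCAF and 4.62 ± 0.19 RPKM alone (adjusted p 0.17). COL6A1 averaged 28.1 ± 0.13 RPKM with CCAF and 28.3 ± 0.073 RPKM alone, a log2 difference between -0.08 and 0.06. COL6A2 averaged 7.42 ± 0.15 RPKM with CCAF and 8.07 ± 1.03 RPKM alone, a log2 difference between -0.30 and 0.09. That is 2 of 5 tested genes higher and 0 lower, where 5.47% of all genes were called higher, 3.99% lower and 9.46% in either direction.

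The direct comparison of the cocultures showed all 5 genes higher with CRPCCAF than with CCAF under DMSO, where 7.03% of all genes were called higher, 6.41% lower and 13.4% in either direction. FN1 was 1.84-fold higher (log2 change 0.87, adjusted p 1.4e-05) and VIM 1.78-fold (0.74, adjusted p 0.0049). COL6A2 was 1.48-fold higher (0.51, adjusted p 0.0058), COL1A1 1.45-fold (0.46, adjusted p 0.0031) and COL6A1 1.23-fold (0.29, adjusted p 0.00060). The comparisons with cells alone and between cocultures share libraries and are not independent of each other.

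**Figure D2:**
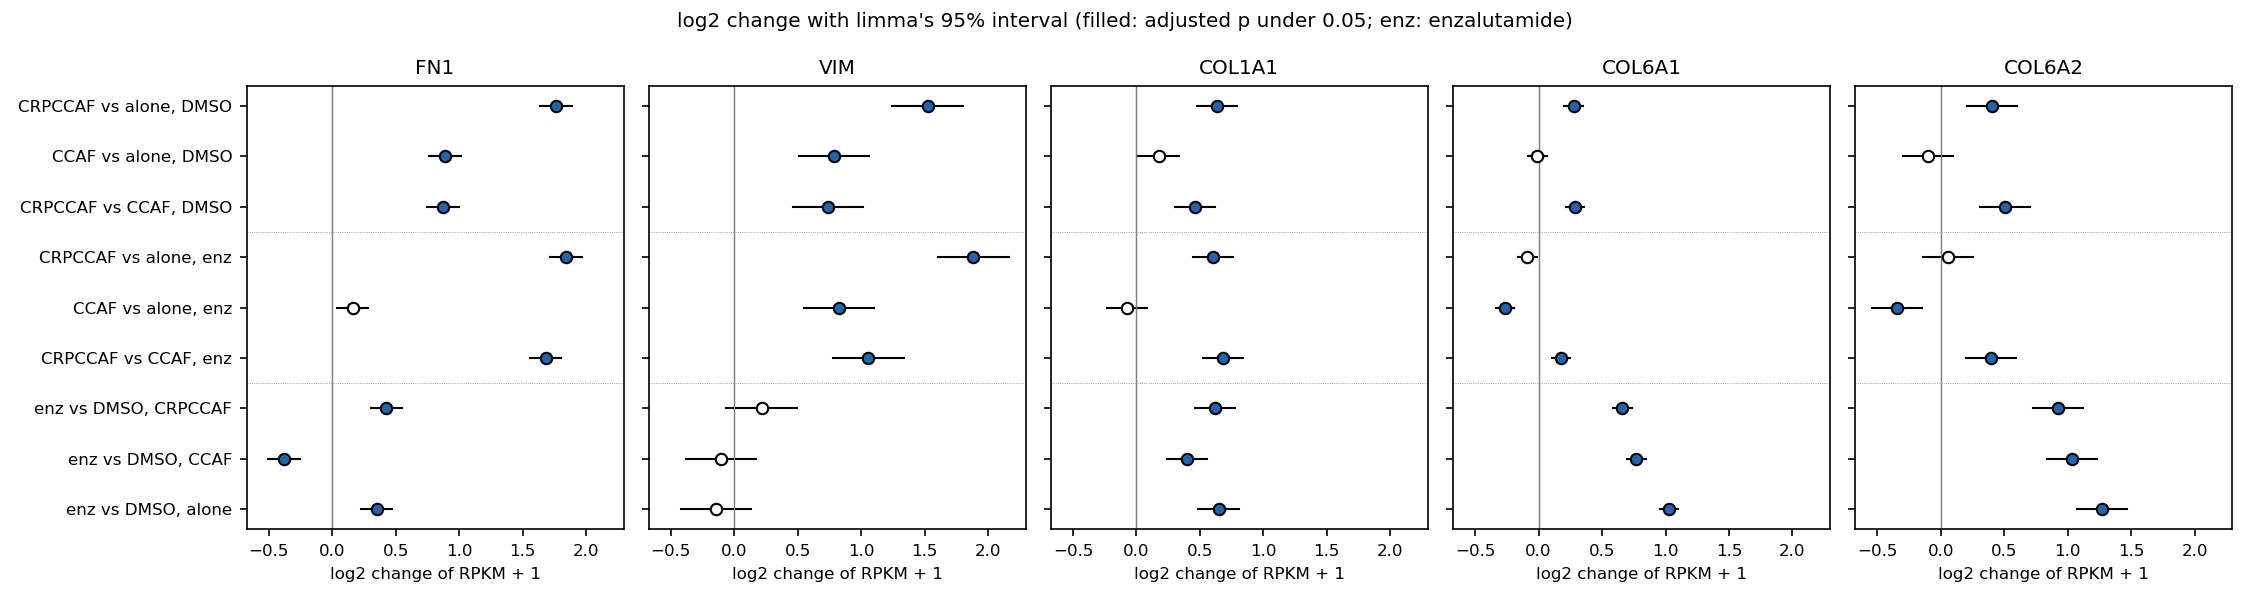
Log2 change of RPKM + 1 (x axis) of the 5 tested genes in 9 comparisons (rows), with limma's 95% interval as lines and filled points for an adjusted p under 0.05. FN1 and VIM have their largest changes in CRPCCAF cocultures, and COL6A1 and COL6A2 in cells alone with enzalutamide.

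Under enzalutamide, FN1, VIM and COL1A1 were again higher with CRPCCAF than alone, and collagen VI was not. FN1 had 187 and 179 RPKM in CRPCCAF cocultures and 51.7 and 48.9 RPKM in cells alone, 3.63-fold (log2 change 1.84, 1.72 to 1.97, adjusted p 1.5e-08). VIM had 12.5 and 11.8 RPKM with CRPCCAF and 2.52 and 2.61 RPKM alone, 4.74-fold (log2 change 1.88, adjusted p 3.0e-06). COL1A1 had 12.2 and 12.6 RPKM with CRPCCAF and 7.47 and 8.14 RPKM alone (0.61, adjusted p 0.00014). Collagen VI did not pass the test. COL6A1 averaged 55.0 ± 1.5 RPKM with CRPCCAF and 58.6 ± 1.1 RPKM alone, a log2 change of -0.09 (adjusted p 0.058). This value lies close to the threshold, with an adjusted p of 0.041 after median-of-ratios scaling and 0.043 without the filter on low values. COL6A2 averaged 21.7 ± 0.10 RPKM with CRPCCAF and 20.9 ± 1.1 RPKM alone, a log2 difference between -0.14 and 0.25. In all, 3 of 5 genes were higher and 0 lower, where 16.5% of all genes were called higher, 19.6% lower and 36.1% in either direction.

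With CCAF under enzalutamide, VIM was the gene that rose. It had 5.47 and 5.17 RPKM with CCAF and 2.52 and 2.61 RPKM alone, 2.07-fold (log2 change 0.83, adjusted p 0.0015). FN1 had 56.4 and 56.2 RPKM with CCAF and 51.7 and 48.9 RPKM alone. These libraries did not overlap, but the log2 change of 0.16 (0.04 to 0.28) had an adjusted p of 0.075. Leaving out either CRPCCAF library with DMSO, which enters here only through the shared spread, gave 0.043 for FN1. COL6A1 fell to 48.8 and 48.3 RPKM with CCAF, against 57.8 and 59.4 RPKM alone, a log2 change of -0.27 (adjusted p 0.00046). COL6A2 had 15.6 and 16.9 RPKM with CCAF and 20.0 and 21.7 RPKM alone, a log2 change of -0.34 (adjusted p 0.024). The call for COL6A2 was lost without the filter (adjusted p 0.065) and without any of the 4 libraries: it was 0.057 without replicate 1 of the cells alone, 0.13 without their replicate 2, 0.13 without CCAF replicate 1 and 0.057 without CCAF replicate 2. The count was 1 gene higher and 2 lower of 5, where 11.9% of all genes were called higher, 7.51% lower and 19.4% in either direction.

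Between the cocultures under enzalutamide, all 5 genes were higher with CRPCCAF than with CCAF, where 13.9% of all genes were called higher, 18.5% lower and 32.4% in either direction. FN1 differed most, at 3.25-fold (log2 change 1.68, adjusted p 5.1e-08), followed by VIM at 2.28-fold (1.06, adjusted p 0.00017). COL1A1 was 1.69-fold higher (adjusted p 7.2e-05), COL6A2 1.33-fold (adjusted p 0.0072) and COL6A1 1.13-fold (adjusted p 0.0028). Without CCAF replicate 1, COL6A2 had an adjusted p of 0.053.

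Enzalutamide itself moved the tested collagens COL6A2, COL6A1 and COL1A1, and most strongly the collagen VI chains. In cells alone, COL6A2 had 20.0 and 21.7 RPKM with enzalutamide and 8.80 and 7.34 RPKM with DMSO, 2.58-fold (log2 change 1.27, 1.07 to 1.47, adjusted p 1.7e-06). COL6A1 had 57.8 and 59.4 RPKM with enzalutamide and 28.3 and 28.2 RPKM with DMSO, 2.07-fold (1.03, 0.95 to 1.10, adjusted p 1.1e-08). Neither gene's libraries overlapped. COL1A1 was 1.69-fold higher (0.65, adjusted p 3.9e-05) and FN1 1.28-fold (0.35, adjusted p 0.00048). VIM averaged 2.56 ± 0.068 RPKM with enzalutamide and 2.99 ± 0.86 RPKM with DMSO, with overlapping libraries (-0.14, adjusted p 0.35). Its value turned on the DMSO cells alone: it was 0.08 without their replicate 1, and -0.37 with an adjusted p of 0.0084 without their replicate 2. In these cells 4 of 5 genes were higher, but 30.1% of all genes were called higher, 25.3% lower and 55.4% in either direction, so a call under enzalutamide is common. After median-of-ratios scaling the balance over all genes turned, with 4297 called higher and 4464 lower in cells alone instead of 4831 and 4056, and 3697 higher and 4041 lower in CCAF cocultures instead of 4306 and 3450. The calls of the 5 genes for enzalutamide against DMSO were the same after it.

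In cocultures the same drug raised the 3 tested collagens too. In CRPCCAF cocultures COL6A2 had 21.6 and 21.8 RPKM with enzalutamide and 10.1 and 11.8 RPKM with DMSO (log2 change 0.92, adjusted p 1.6e-05). COL6A1 had 56.0 and 54.0 RPKM with enzalutamide and 34.4 and 34.5 RPKM with DMSO (0.66, adjusted p 1.9e-07). COL1A1 rose 1.60-fold (0.62, adjusted p 5.5e-05) and FN1 1.35-fold (0.43, adjusted p 0.00013), and VIM had a log2 change of 0.21 (adjusted p 0.17). That VIM change had an adjusted p of 0.034 without replicate 1 and 0.033 without replicate 2 of the DMSO cells alone, which enter here only through the shared spread. In CRPCCAF cocultures 4 of 5 genes were thus higher, where 30.5% of all genes were called higher, 24.7% lower and 55.2% in either direction. In CCAF cocultures COL6A2 averaged 16.2 ± 0.87 RPKM with enzalutamide and 7.42 ± 0.15 RPKM with DMSO (1.03, adjusted p 1.1e-05). COL6A1 averaged 48.6 ± 0.39 RPKM with enzalutamide and 28.1 ± 0.13 RPKM with DMSO (0.77, adjusted p 1.7e-07). COL1A1 averaged 7.34 ± 0.38 RPKM with enzalutamide and 5.34 ± 0.13 RPKM with DMSO (0.39, adjusted p 0.0013). FN1 went the other way there: it fell to 56.4 and 56.2 RPKM with enzalutamide, against 76.0 and 71.4 RPKM with DMSO (-0.38, adjusted p 0.00037). The CCAF count was 3 higher and 1 lower of 5, where 26.8% of all genes were called higher, 21.5% lower and 48.3% in either direction.

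The effect of enzalutamide on FN1 and COL6A1 therefore depended on the culture, by a test of the difference of log2 changes. For FN1, the change in CCAF cocultures was lower by 0.73 than in cells alone (-0.91 to -0.55, adjusted p 0.00046), and the change in CRPCCAF cocultures was higher by 0.81 than in CCAF cocultures (0.63 to 0.99, adjusted p 0.00029). The comparison of CRPCCAF with CCAF was added after the data had been seen. The FN1 change in CRPCCAF cocultures differed from that in cells alone by 0.08 (-0.10 to 0.25, adjusted p 0.63). For COL6A1, the change was smaller by 0.26 in CCAF cocultures (difference -0.26, adjusted p 0.0099) and by 0.37 in CRPCCAF cocultures (difference -0.37, adjusted p 0.0015) than in cells alone. These are 2 of 5 genes lower for CCAF minus alone (7.01% of all genes called, 4.56% higher and 2.45% lower), 1 of 5 lower for CRPCCAF minus alone (7.01% called, 3.68% higher and 3.33% lower) and 1 of 5 higher for CRPCCAF minus CCAF (6.45% called, 2.38% higher and 4.07% lower). For VIM, the difference for CRPCCAF minus alone was 0.36 (adjusted p 0.27), and 0.58 with an adjusted p of 0.027 without replicate 2 of the DMSO cells alone.

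Over the 6 groups, each gene had its own order. FN1 ran from CRPCCAF with enzalutamide, CRPCCAF with DMSO, CCAF with DMSO, CCAF with enzalutamide and alone with enzalutamide to alone with DMSO, and of these neighbours only CCAF and alone under enzalutamide did not differ by the test. VIM ran in the same order of cultures, but the main test called no difference between enzalutamide and DMSO in any of the 3 cultures, with the exceptions for left-out libraries given above. COL6A1 and COL6A2 were ordered by the drug first: every library with enzalutamide lay above every library with DMSO. COL1A1 was highest in CRPCCAF with enzalutamide at 12.4 ± 0.25 RPKM, while alone with enzalutamide (7.81 ± 0.48 RPKM) and CRPCCAF with DMSO (7.74 ± 0.72 RPKM), a pair that was not tested, overlapped.

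The levels of the genes relative to each other varied accordingly. RPKM is per length, so levels of different genes can be set side by side. The ratio of COL6A1 to COL6A2 stayed between 2.48 and 3.85 in all 12 libraries, whereas FN1 was 6.004 to 19.7 times COL1A1, with the highest ratio in a CRPCCAF library with DMSO and the lowest in cells alone with enzalutamide. COL6A1 and COL6A2 lie close together on chromosome 21, with 3 annotated genes between them in the RefSeq annotation of GRCh38.p14, of which 0 are protein-coding.

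The 250 bases upstream of the annotated start are shown for FN1 and VIM, which rose most with the fibroblasts, and for COL6A2, which rose most with enzalutamide. They come from RefSeq promoter sequences on GRCh38.p14, where 4 of the 10 genes were matched. The submitters' processing notes name hg19, so these positions are not those of the deposited files. FN1 is at chr2:215436069-215436318 on the minus strand, VIM at chr10:17227991-17228240 and COL6A2 at chr21:46097862-46098111, both on the plus strand. Capitals mark matches, on either strand, to the letters TGACGTCA (the CRE, bound by CREB and ATF factors), to the CCAAT box, to the GC box with the letters GGGCGG, and to the TATA box with the letters TATAAA. Of these motifs, the GC boxes overlap each other in places.
FN1: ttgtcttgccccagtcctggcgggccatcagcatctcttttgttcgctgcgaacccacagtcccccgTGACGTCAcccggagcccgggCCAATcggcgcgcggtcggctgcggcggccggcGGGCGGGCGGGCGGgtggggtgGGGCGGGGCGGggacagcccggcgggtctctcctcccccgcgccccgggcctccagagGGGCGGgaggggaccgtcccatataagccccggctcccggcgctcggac
VIM: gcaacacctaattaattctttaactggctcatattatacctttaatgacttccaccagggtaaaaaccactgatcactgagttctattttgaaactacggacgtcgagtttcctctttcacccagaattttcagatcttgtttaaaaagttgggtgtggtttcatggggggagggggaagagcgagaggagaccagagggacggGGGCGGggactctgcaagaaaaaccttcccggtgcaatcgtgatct
COL6A2: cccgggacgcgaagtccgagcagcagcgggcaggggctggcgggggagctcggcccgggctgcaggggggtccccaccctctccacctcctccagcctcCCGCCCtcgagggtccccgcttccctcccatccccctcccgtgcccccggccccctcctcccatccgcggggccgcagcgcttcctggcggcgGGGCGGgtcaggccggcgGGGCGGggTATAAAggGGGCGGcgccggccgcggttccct
The FN1 window holds 1 CRE, 183 bases before the start, as do 1.65% of 35116 promoter windows of the same length. It also holds 1 CCAAT, found in 32.0% of windows, and 6 GC boxes, where 42.6% of windows hold at least 1. The COL6A2 window holds 4 GC boxes and 1 TATAAA, 32 bases before the start, found in 10.7% of windows. The VIM window holds 1 GC box. The letters ACGTG (the hypoxia response core, in 18.5% of windows) and TGANTCA (AP-1, in 6.57%) had 0 matches in these 3 windows. A match is a description of the letters and not evidence of binding.

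Of the genes whose RNA stayed low, SPARC had fewer reads with enzalutamide than with DMSO in all 3 cultures. It had 0 and 1 reads in CRPCCAF cocultures with enzalutamide, against 9 and 13 with DMSO. In CCAF cocultures it had 5 and 0 reads with enzalutamide and 35 and 32 with DMSO, and in cells alone 3 and 7 reads with enzalutamide and 30 and 20 with DMSO. SPARC was outside the main test, but in a fit without the filter its log2 change was -0.52 in CCAF cocultures (adjusted p 0.0010), -0.34 in cells alone (adjusted p 0.0075) and -0.21 in CRPCCAF cocultures (adjusted p 0.060). With DMSO, SPARC had 0.167 ± 0.040 RPKM with CRPCCAF, 0.486 ± 0.026 RPKM with CCAF and 0.352 ± 0.14 RPKM alone. In that fit SPARC was lower with CRPCCAF than with CCAF under DMSO (log2 change -0.35, adjusted p 0.031), and the adjusted p against cells alone was 0.10 for CRPCCAF and 0.44 for CCAF.

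The other low genes had few reads. COL3A1 had between 15 and 51 reads in a library, and with DMSO it had 26 and 27 reads with CRPCCAF and 51 and 31 alone. Under enzalutamide COL3A1 had 21 and 15 reads with CRPCCAF, 34 and 42 with CCAF and 38 and 43 alone. Its sums there were 36 reads with CRPCCAF (95% Poisson interval 25.2 to 49.8) and 81 alone (64.3 to 101). These intervals cover counting error only and did not overlap. The sums are not scaled to depth, which was 37460240 reads with CRPCCAF and 42250439 alone. COL3A1 was not called in this comparison in the fit without the filter. COL1A2 had 0 reads in both CRPCCAF and both CCAF libraries with enzalutamide, and 3 reads in a library, taken here as the limit that a count of 0 allows, would be at most 0.0310 RPKM there. It had 29 reads in replicate 1 of the DMSO cells alone and at most 4 in any other library. DCN had 1 and 0 reads with CRPCCAF and 3 and 10 alone under enzalutamide, and 0 and 2 with CRPCCAF and 7 and 4 alone with DMSO. The DCN libraries were apart in both of these comparisons, with sums of 1 against 13 reads (95% Poisson intervals 0.0253 to 5.57 and 6.92 to 22.2) under enzalutamide and 2 against 11 (0.242 to 7.22 and 5.49 to 19.7) with DMSO. The intervals of DCN did not overlap under enzalutamide and overlapped with DMSO. In CCAF cocultures DCN had 0 and 2 reads with enzalutamide, also below the cells alone, and 2 and 7 with DMSO. THY1 had 3 and 3 reads with CRPCCAF, 0 and 0 with CCAF and 1 and 0 alone under enzalutamide, and 3 and 5 with CRPCCAF, 0 and 1 with CCAF and 2 and 0 alone with DMSO. Its CRPCCAF libraries lay above those of CCAF and of cells alone under both treatments. The THY1 sums with DMSO were 8 reads with CRPCCAF (95% Poisson interval 3.45 to 15.8) and 2 alone (0.242 to 7.22), so the intervals, which cover counting error only, overlapped. In the fit without the filter, the adjusted p of THY1 with CRPCCAF was 0.20 against alone and 0.14 against CCAF under enzalutamide, and 0.14 against each with DMSO. That of DCN with CRPCCAF against alone was 0.24 under enzalutamide and 0.36 with DMSO.

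Whether the rises were shared by all fibroblast genes was examined with the levels of the same genes in the mouse fibroblasts, in TPM (transcripts scaled to gene length and library total), as medians over 10 libraries that pool the 5 fibroblast groups, treated and untreated. The titles of these fibroblast libraries carry p53 at day 7 or ca for ADT, terms also found in the coculture titles. Beyond such shared terms, nothing in the labels says that these are the cocultured cells. The LNCaP and fibroblast tables were normalized separately, so no test was run across them. In the fibroblasts Sparc was the highest of the 10 by median, at 5692 TPM, followed by Col1a1 at 5412, Vim at 4413, Fn1 at 3949, Col1a2 at 3539, Col3a1 at 827 and Thy1 at 312 TPM. Col6a1 at 175, Dcn at 80.9 and Col6a2 at 50.9 TPM were lowest. Of the 8 genes with at least 100 TPM in all 10 libraries, 4 (SPARC, COL1A2, COL3A1 and THY1) stayed under 1 RPKM in all 12 LNCaP libraries.

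The rises did not follow the fibroblast levels gene by gene. CRPCCAF cocultures exceeded cells alone, with DMSO, by 96.5 RPKM for FN1, by 7.34 RPKM for VIM and by 3.11 RPKM for COL1A1. The mouse levels of Vim and Col1a1 were both higher than that of Fn1. For SPARC the difference was -0.185 RPKM, for COL1A2 -0.138 RPKM and for COL3A1 -0.116 RPKM. It was 0.0405 RPKM for THY1, -0.0483 RPKM for DCN and 2.91 RPKM for COL6A2. The libraries of COL1A2 and of COL3A1 overlapped. The COL1A2 value rests on replicate 1 of the cells alone, at 0.290 RPKM against 0.0167 RPKM in replicate 2. COL6A1, with a fibroblast level far under that of Sparc or Col1a2, differed by 6.20 RPKM. With CCAF the differences were 34.4 RPKM for FN1, 2.81 RPKM for VIM and 0.718 RPKM for COL1A1, against 0.133 RPKM for SPARC and -0.129 RPKM for COL1A2. The COL1A2 libraries overlapped there too, and its value rests on the same library of the cells alone. With DMSO the differences were thus limited to some of the genes. Under enzalutamide they were 132 RPKM for FN1, 9.57 for VIM, 4.58 for COL1A1, -3.58 for COL6A1 and -0.0575 for SPARC with CRPCCAF. With CCAF under enzalutamide they were 5.99 RPKM for FN1, 2.75 for VIM, -0.466 for COL1A1, -10.0 for COL6A1 and -0.0302 for SPARC. How well fibroblast reads of each gene would be counted in the LNCaP table was not tested.

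**Figure D3:**
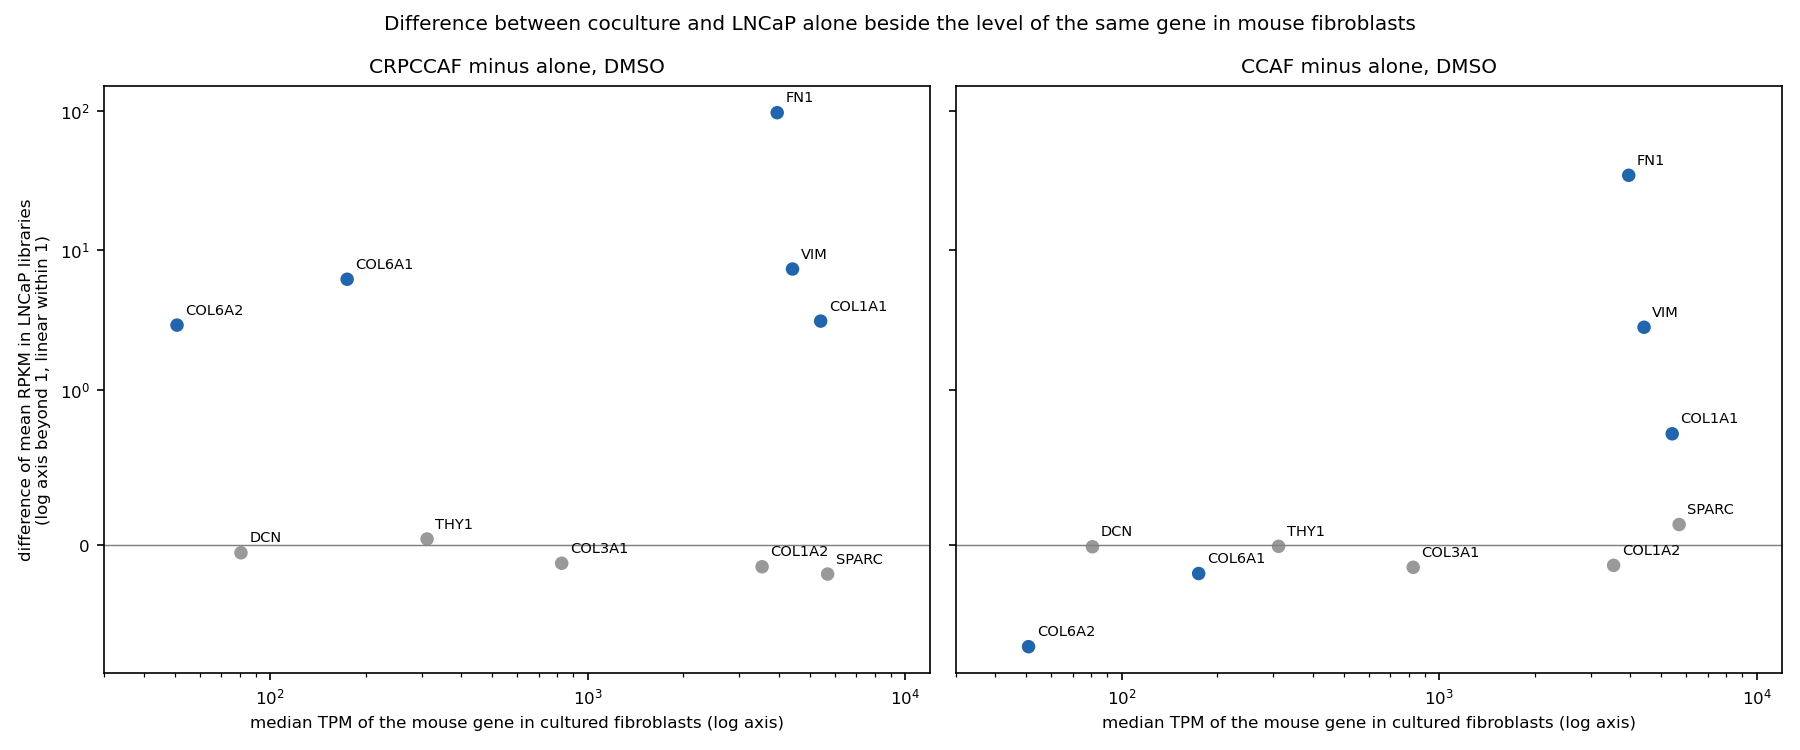
Difference of mean RPKM between coculture and LNCaP alone with DMSO (y axis, linear within 1 and log beyond) beside the median TPM of the same gene in 10 mouse fibroblast libraries of 5 groups (x axis, log), for CRPCCAF on the left and CCAF on the right. Blue points are the 5 tested genes and grey points those under 1 RPKM. SPARC, at 5692 TPM in fibroblasts, lies near 0 in both panels, while FN1 lies at 96.5 and 34.4 RPKM.

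A list of 20 other fibroblast markers was mostly low as well. Of these, 14 stayed under 1 RPKM in all 12 libraries, among them PDGFRB, FBN1, MMP2 and POSTN, and 6 were tested. Not all 20 are strong in the mouse fibroblasts, where Lum had a median of 0.832 TPM and Sfrp2 0.332 TPM. Of 18 with a mouse value, 8 had at least 100 TPM in all 10 fibroblast libraries, and 4 of these 8 stayed under 1 RPKM. ACTA2, TAGLN, FBLN2 and FSTL1, the highest in mouse with medians of 1272 to 3998 TPM, were among the 6 tested. With DMSO, 1 of 6 was higher with CRPCCAF than alone, where 14.3% of all genes were. It was C1R, a complement protease, at 8.57 ± 0.089 RPKM with CRPCCAF and 5.61 ± 0.098 RPKM alone. With CCAF 0 were higher, where 5.47% of all genes were. The summed level of the 20 genes was 24.6 to 24.9 RPKM in CRPCCAF libraries, 21.05 to 21.54 RPKM in CCAF libraries and 19.9 to 21.6 RPKM in cells alone with DMSO. With enzalutamide it was 39.0 to 42.1 RPKM with CRPCCAF, 31.3 to 33.2 RPKM with CCAF and 30.3 to 30.6 RPKM alone. There 4 of 6 were higher with CRPCCAF and 1 with CCAF than alone, where 16.5% and 11.9% of all genes were. The filter on low values, which a gene could pass through its CRPCCAF libraries, has a part in this count. At least 1 RPKM in both libraries was reached by 6 of the 20 with CRPCCAF and by 4 alone, under enzalutamide. The part of these markers in the results of FN1 and VIM was not tested.

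Markers of other cells were few. Smooth muscle and pericyte markers stayed under 1 RPKM (6 of 6 in every group). Of 6 leukocyte markers, CD68, a lysosomal protein that is not limited to leukocytes, was tested: it had 9.19 ± 0.88 RPKM with CRPCCAF and 4.49 ± 0.17 RPKM alone with DMSO (adjusted p 6.4e-05). With enzalutamide it had 21.9 ± 0.60 RPKM with CRPCCAF and 5.04 ± 0.72 RPKM alone (adjusted p 2.1e-07). The leukocyte list summed to 8.64 to 10.0 RPKM with CRPCCAF, 5.25 to 5.37 RPKM with CCAF and 4.53 to 5.64 RPKM alone with DMSO. With enzalutamide it summed to 22.1 to 23.0 RPKM with CRPCCAF, 6.49 to 6.84 RPKM with CCAF and 4.83 to 5.65 RPKM alone. The defining leukocyte marker PTPRC was at most 0.0182 RPKM, and CD3E at most 0.0358 RPKM. Of 5 endothelial markers, VWF was tested and was highest with CCAF, at 4.03 ± 0.27 RPKM with enzalutamide, against 0.744 ± 0.038 RPKM alone, while PECAM1 was at most 0.0232 RPKM. The endothelial list summed to 1.57 to 1.67 RPKM with CRPCCAF, 2.28 to 2.30 RPKM with CCAF and 0.897 to 1.10 RPKM alone with DMSO. With enzalutamide it summed to 1.28 to 1.31 RPKM with CRPCCAF, 3.89 to 4.23 RPKM with CCAF and 0.746 to 0.771 RPKM alone. Their part in the results was not tested.

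Of 13 tested enzymes that fold and cross-link collagen, 9 were higher, 0 were lower and 4 did not pass the test with CRPCCAF against alone with DMSO (median log2 change 0.36), where 14.3% of all genes were called higher. With CCAF 6 were higher, 0 lower and 7 did not pass, where 5.47% of all genes were called higher. PLOD2, a lysyl hydroxylase, had 29.8 ± 2.0 RPKM with CRPCCAF, 19.6 ± 0.077 RPKM with CCAF and 2.13 ± 0.44 RPKM alone. Its log2 change with CRPCCAF was 3.30 (adjusted p 1.6e-08). P4HA1, a subunit of the prolyl hydroxylase that stabilizes the collagen helix, had 102 ± 5.1 RPKM with CRPCCAF and 28.0 ± 1.3 RPKM alone (1.82, adjusted p 1.5e-08). PLOD1 (log2 change 1.35) and P4HA2 (1.30) were the other enzymes with the smallest p. The drug left more of these enzymes lower than higher: with enzalutamide 7 of 13 were lower and 3 higher than with DMSO in cells alone, 9 lower and 1 higher in CCAF cocultures, and 9 lower and 2 higher in CRPCCAF cocultures. Of all genes, 25.3%, 21.5% and 24.7% were called lower and 30.1%, 26.8% and 30.5% higher in these comparisons, in the same order. PLOD2 in cells alone fell to 0.177 ± 0.062 RPKM with enzalutamide, against 2.13 ± 0.44 RPKM with DMSO (-1.40, adjusted p 1.0e-06).

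Of 10 tested receptors for fibronectin and collagen, 10 were higher with CRPCCAF than alone under enzalutamide, where 16.5% of all genes were called higher. The filter on low values, which a gene could pass through its CRPCCAF libraries, has a part in this count. At least 1 RPKM in both libraries was reached by 10 of 17 listed receptors with CRPCCAF and by 8 alone, under enzalutamide. With DMSO 7 of the 10 tested were higher and 1 lower, where 14.3% of all genes were called higher and 16.3% lower. With CCAF 1 was higher and 1 lower under each treatment, where 11.9% of all genes were called higher and 7.51% lower under enzalutamide and 5.47% and 3.99% with DMSO. ITGA5, the alpha chain of the main fibronectin receptor, had 17.4 ± 0.15 RPKM with CRPCCAF and 9.81 ± 0.51 RPKM alone under enzalutamide (log2 change 0.77, adjusted p 1.5e-06). ITGAV, an alpha chain that pairs with several beta chains, had 41.9 ± 0.65 RPKM with CRPCCAF and 20.3 ± 0.21 RPKM alone (1.01, adjusted p 6.3e-07) there. ITGB5, one of those beta chains, had 14.7 ± 0.68 RPKM with CRPCCAF and 10.3 ± 0.23 RPKM alone (0.48, adjusted p 0.00089). DDR1, a collagen receptor kinase of epithelial cells, had 96.6 ± 1.7 RPKM with CRPCCAF and 78.2 ± 1.4 RPKM alone (0.30, adjusted p 7.7e-05).

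Among 10 tested genes of the basement membrane, 6 were higher and 2 lower with CRPCCAF than alone with DMSO, and 1 higher and 1 lower with CCAF. Of all genes, 14.3% were called higher and 16.3% lower with CRPCCAF, and 5.47% and 3.99% with CCAF. With DMSO, 10 of 16 listed genes had at least 1 RPKM in both CRPCCAF libraries and 9 in both libraries alone. The filter on low values, which LAMB3 passed only through coculture libraries, thus has a part in the count. LAMB3, the beta chain of the laminin of epithelial anchoring structures, had 3.74 ± 0.36 RPKM with CRPCCAF and 0.375 ± 0.12 RPKM alone with DMSO (log2 change 1.79, adjusted p 1.1e-05). Under enzalutamide it had 11.1 ± 0.38 RPKM with CRPCCAF and 0.240 ± 0.18 RPKM alone. LAMA3, the alpha chain of the same laminin, went the other way, with 4.22 ± 0.21 RPKM with CRPCCAF and 5.74 ± 0.14 RPKM alone with DMSO (-0.37, adjusted p 0.0021). LAMC1 was higher (0.45, adjusted p 0.00016), as was LAMB2 (0.29, adjusted p 0.00017). Of 10 other collagens 3 were tested, and COL16A1 alone was higher, at 1.28 ± 0.040 RPKM with CRPCCAF and 0.291 ± 0.014 RPKM alone (0.82, adjusted p 0.00024). With DMSO, 1 of the 10 had at least 1 RPKM in both CRPCCAF libraries and 0 in both libraries alone. The filter thus has a part in this result too.

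Epithelial genes were measured beside FN1 and VIM. Of 14 genes of epithelial junctions and keratins, all tested, 9 were higher and 2 lower with CRPCCAF than alone with DMSO (14.3% and 16.3% of all genes), and 5 higher and 1 lower with CCAF (5.47% and 3.99% of all genes). DSP, the desmosomal plaque protein, had 83.2 ± 6.3 RPKM with CRPCCAF and 38.0 ± 0.13 RPKM alone (log2 change 1.11, adjusted p 2.7e-07). KRT19 (1.49), CLDN4 (0.72) and KRT8 (0.50), keratins and a claudin, were also higher. Of 8 mesenchymal transcription factors and N-cadherin, 3 were tested, and 2 were higher with CRPCCAF than alone with DMSO. With DMSO, 2 of the 8 had at least 1 RPKM in both CRPCCAF libraries and 1 in both libraries alone. The filter on low values thus has a part in that count. SNAI2 had 2.18 ± 0.20 RPKM with CRPCCAF and 0.604 ± 0.056 RPKM alone (0.99, adjusted p 0.00035), and TWIST1 had 11.7 ± 0.42 RPKM with CRPCCAF and 8.70 ± 1.4 RPKM alone (0.40, adjusted p 0.011). With enzalutamide both were lower than with DMSO in all 3 cultures: TWIST1 averaged 3.74 ± 0.16 RPKM with enzalutamide and 11.7 ± 0.42 RPKM with DMSO in CRPCCAF cocultures (-1.42, adjusted p 1.3e-06). No SNAI2 or TWIST1 difference between CRPCCAF and alone passed the test under enzalutamide. SNAI2 had 0.279 ± 0.054 RPKM with CRPCCAF and 0.0437 ± 0.029 RPKM alone there (log2 change 0.29, adjusted p 0.097). The log2(RPKM + 1) scale understates changes at such a level. TWIST1 had 3.74 ± 0.16 RPKM with CRPCCAF and 3.89 ± 0.26 RPKM alone. FN1 and VIM were 3.63-fold and 4.74-fold higher in RPKM in that comparison.

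The genes whose levels followed each tested gene most closely over the 12 libraries were found by Pearson's r among 12847 genes, as a description, since the libraries share 6 groups. For FN1 they were WSB1 (r = 0.991), GPR153 (0.984) and TMEM74B (0.984). For COL1A1 they were GLIS2 (0.987), BMF (0.987) and VAT1 (0.986). For COL6A1 they were FAM219B (0.996), MME (0.996) and OS9 (0.994), and for COL6A2 LZTS3 (0.992), WBP2 (0.992) and GRN (0.990). For VIM they were DHRS3 (0.990), TNIP1 (0.989) and VIM-AS1 (0.987). VIM-AS1 is the antisense RNA at the VIM gene, and the sources used here do not say whether counting used strand, so reads of VIM and VIM-AS1 cannot be told apart where they overlap. VIM-AS1 had 3.96 and 3.22 RPKM in CRPCCAF cocultures with enzalutamide and 2.66 and 3.27 RPKM with DMSO, and at most 1.09 RPKM in cells alone.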

How the data were processed

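Per the labels' protocols, RNA was extracted with Trizol and libraries were made with the NEBNext Ultra kit. The authors deposited RPKM for LNCaP and TPM for the mouse fibroblasts, per the file headers. The tools and builds in the submitters' processing notes are HISAT2, HTSeq and DESeq2, hg19 and mm10, without roles. From 44591 LNCaP names, 27 calendar dates were removed. Reads were recovered from the smallest steps: 100% of solved values were whole within 0.05 reads, and solved genes held at least 99.9% of each RPKM total.

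The 12 LNCaP libraries entered a single limma fit (limma 3.58.1, R 4.3.3, trend, 6 groups, no block, 6 residual degrees of freedom) on log2(RPKM + 1), over 16042 genes at 1 RPKM or more in at least 2 libraries, with Benjamini-Hochberg adjustment within each of 12 comparisons. The script was tested on simulated data. Alternatives were a pseudocount of 0.1, no filter (33693 genes), median-of-ratios scaling, a replicate block and each library left out. The genes and lists were chosen with earlier results of these data known. Named list genes are those called with CRPCCAF against alone, DMSO, up to 4 a list by adjusted p. The 2 Sox4-labelled fibroblast columns did not hold whole reads and were not used.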

Additional observations from a re-analysis of the deposited data

Results flagged for a closer look

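The log2 effect of enzalutamide differed between cultures for 2 of the 5 tested genes, by limma's test of the difference. For FN1 it was -0.38 in CCAF cocultures and 0.35 in cells alone, a difference of -0.73 (adjusted p 0.00046). Between the cocultures it was 0.43 with CRPCCAF and -0.38 with CCAF, a difference of 0.81 (adjusted p 0.00029), in a comparison added after the data had been seen. For COL6A1 it was 0.77 in CCAF cocultures and 1.03 in cells alone, a difference of -0.26 (adjusted p 0.0099). With CRPCCAF it was 0.66, a difference from cells alone of -0.37 (adjusted p 0.0015). With 2 libraries a group, no group was large enough for a check of single libraries that stand apart.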

How the results depend on the processing

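Of the log2 changes of the 5 genes under the alternatives, with left-out libraries counted only where they belong to the comparison itself, 522 kept their direction and their side of the threshold, 7 lost the call and 4 gained one, as given beside the results. Leaving out a library of another group, which moves only the shared spread, left 416 as they were, lost 0 calls and gained 4, for FN1 and VIM as given beside the results. The 7 that changed direction all came from leaving out 1 library and had not passed the test. They are VIM, enzalutamide against DMSO in cells alone (range -0.368 to 0.078), COL6A2, CCAF against alone with DMSO (-0.219 to 0.0124), the VIM difference of drug effects for CCAF minus alone (-0.182 to 0.263), and the COL1A1 difference for CRPCCAF minus alone (-0.113 to 0.0565). Leaving out 1 library, with the lone library assumed to vary like the other groups, changed counts over all genes more. Genes called were 640 to 824 instead of 1518 for CCAF against alone with DMSO, 821 to 1962 instead of 2156 for CRPCCAF against CCAF with DMSO, and 1672 to 1951 instead of 3107 for CCAF against alone with enzalutamide. For the differences of drug effects they were 623 to 813 instead of 1125 for CCAF minus alone, 580 to 1121 instead of 1125 for CRPCCAF minus alone, and 580 to 1367 instead of 1034 for CRPCCAF minus CCAF. Of the 5 genes, those called for CRPCCAF minus alone were 1 to 2 instead of 1. The cause was not tested. Libraries of the same replicate number did not deviate together (r from -0.0617 to 0.0840 over 15 pairs of groups, across genes that are not independent). This shows no large deviation shared by number, and cannot show whether libraries of the same number were handled together. With the replicate block, the 12 counts of genes called stayed within 1.5 times, the largest move being to 981 from 1125 for the difference of drug effects for CRPCCAF minus alone, and the block changed no call of the 5 genes. With 2 libraries a group, precision is limited.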
